A study of Mus musculus with 12 samples.

Results

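Transcripts of the provisional class TEC that had reads in mouse liver are described here across 3 genotypes. The members were selected on their counts and are the 295 rows of the gene table with biotype TEC and at least 10 counts in at least 4 of 12 livers, out of 3237 TEC rows and 56748 genes in all. RNA-seq had been run on whole livers of 24 h-fasted mice, 4 per genotype. The controls (WT) were CPT1A/1B/2 triple floxed control mice, the single KOs (SKO) were labelled as lacking CPT2 in the liver, and the double KOs (DKO) as lacking ATF3 and CPT2 there. In both KOs the floxed alleles were to be deleted by an albumin-Cre transgene, which drives deletion in hepatocytes and can also act in cholangiocytes, and the other cells of the liver keep the alleles. All 3 groups were fasted alike, and the labels give neither the age of a mouse nor whether a number in a title marks a litter or a day.

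TEC is a provisional biotype of the Ensembl and Havana annotation for unspliced clusters of cDNA or EST sequence that end like polyadenylated RNA and await experimental proof. Such rows often lie inside introns of longer genes or run antisense to them, and reads on them can come from a transcript of their own, from unspliced RNA of a host gene or from readthrough past a gene end. The class is therefore usually left out of expression studies, although the antisense and intronic transcripts in it include RNAs read near enhancers and promoters.

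The rule on counts chose the members, so their detection is no result. Of the 3237 TEC rows, 1457 had 0 counts in every liver. Only 84 of the 295 members had 10 counts in all 12 livers, and 39 had them in exactly 4. Without the DKO livers 83 members would not have passed, against 42 without the WT and 31 without the SKO livers, and 6 members reached 10 counts in DKO livers only. Without DKO replicate 4 alone, 22 would have been lost. Just inside the threshold by the count that 4 livers reached stood 4930577N17Rik, Gm43205 and Gm48958 with 10, and just outside stood E330011M16Rik, Gm42436 and Gm45424 with 9.

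The members were almost all unspliced and of low level. By the GRCm38 annotation (GENCODE M21), 291 of them have 1 exon, and their median length was 2275 bases. Their mean level over the 12 livers had a median of 0.809 CPM (counts scaled to a common library size per liver with edgeR's TMM factors) and ran from 0.329 to 60.5 CPM, with 123 members at 1 CPM or more. The single row Gm44250 held 12.1% of the members' summed level, and the 10 highest rows held 30.9%. Total counts were 14710304 to 20030055 per liver, so that the limit a count of 0 allows, 3 counts, was 0.150 to 0.204 CPM and covers counting error only.

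Most members lay inside or against a protein-coding gene. In the same annotation 129 members (43.7%) sat in or touched an intron on the same strand, 56 (19.0%) overlapped an exon on the opposite strand, 21 an intron on the opposite strand, and 19 an exon on the same strand. The other 70 (23.7%) lay outside protein-coding genes. Among all TEC genes overlap with an opposite-strand exon was rarer (7.58%) and a place outside protein-coding genes more common (37.3%). By the coordinates of the gene table, 49 members overlapped no gene of another biotype, and 38 of these were within 5000 bases of one.

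The last 60 bases of the highest member and of the 7 members called in both KOs against WT are shown, because a polyadenylation signal near the end is what the biotype asks for. Capitals mark the signals AATAAA and ATTAAA, and the sequences are the GENCODE M21 transcripts, 5′ to 3′, at their GRCm38 positions.
Gm44250, chr6:5216258-5216317, minus strand: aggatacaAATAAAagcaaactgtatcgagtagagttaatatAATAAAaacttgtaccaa
Gm47528, chr9:46239841-46239900, minus strand: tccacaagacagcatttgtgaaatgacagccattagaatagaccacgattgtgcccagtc
Gm43314, chr3:157894961-157895020, minus strand: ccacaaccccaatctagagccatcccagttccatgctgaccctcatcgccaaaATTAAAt
Gm37795, chr4:150070938-150070997, plus strand: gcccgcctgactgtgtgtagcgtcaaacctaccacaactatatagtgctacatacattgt
Gm45724, chr8:105051049-105051108, minus strand: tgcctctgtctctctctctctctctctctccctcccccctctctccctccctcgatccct
Gm45221, chr7:90188139-90188198, plus strand: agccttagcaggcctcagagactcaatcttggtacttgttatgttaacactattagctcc
Gm37416, chr2:16023108-16023167, minus strand: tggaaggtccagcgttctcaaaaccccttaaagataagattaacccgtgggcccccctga
ENSMUSG00000118106, chr19:32488139-32488198, plus strand: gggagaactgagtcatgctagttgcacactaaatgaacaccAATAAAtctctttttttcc
A signal stood in 3 of these 8 ends, and the end of Gm45724 was almost wholly C and T. Over all members 117 of 295 (39.7%) had AATAAA or ATTAAA in their last 50 bases. The share was 27.9% of the other TEC genes, 50.4% of lincRNA and antisense genes past the same counts, and 74.3% of protein-coding genes past them. A match of these letters is a description and not a site of cleavage.

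Before the members' results, a few facts of the libraries bear on them. Cpt2 fell in both KOs as groups (log2 fold change −0.89 in SKO and −0.99 in DKO livers), which does not show its level in each liver. Atf3 stood at 1.11 to 2.14 CPM in WT, 14.5 to 54.0 in SKO, 7.91 to 13.5 in DKO replicates 1 to 3 and 0.266 CPM in DKO replicate 4. Atf3 in DKO replicates 1 to 3 was thus above WT. Counts over a whole gene do not separate deleted exons from the rest, so that they do not check the loss of ATF3 or of CPT2. SKO and DKO stand for the labels throughout. DKO replicate 4 and SKO replicate 3 had 20855 and 18063 counts of Xist and at most 2 on Y-linked genes, whereas the other 10 livers had at most 19 and at least 2741; the study describes the sequenced mice as male. All 7 hepatocyte markers had counts, with a summed level of 73430 to 91510 CPM (WT), 39870 to 69790 (SKO) and 41080 to 93070 (DKO). Beside the SKO values below, the summed level of 5 cholangiocyte markers was 27.9 to 33.2 CPM in WT and 7.41 to 14.4 in SKO livers, and that of 6 stellate cell and fibroblast markers 165 to 195 and 226 to 314 CPM. In DKO livers these sums were 9.60 to 31.2 and 207 to 264 CPM, the second again above every WT liver, and their part in the members' values was not tested. A few markers can carry a sum. Of 4 cholangiocyte markers tested, 2 were called lower than WT in SKO and 1 in DKO livers. Of 6 stellate cell and fibroblast markers, 1 was called higher in SKO and 0 in DKO livers. Of all genes, 32.1% and 10.5% were called in these comparisons. In whole liver, fewer cells of a type and less RNA per cell cannot be told apart. The setting of the counting for strand is not given in the sources used here, so that reads of a member and of a gene overlapping it on either strand cannot be separated.

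The summed level of the members was lowest on average in the SKO livers, with ranges that overlapped between genotypes. It was 484, 524, 531 and 529 CPM in the WT livers, 467, 391, 505 and 398 CPM in the SKO livers, and 533, 505, 558 and 604 CPM in the DKO livers. The means were 516.9 ± 21.99 (WT), 440 ± 55.1 (SKO) and 550 ± 42.1 CPM (DKO) (SD, n = 4), or 532 ± 26.4 without DKO replicate 4. One SKO liver stood within the WT range, the other SKO livers stood below it, and the SKO and DKO ranges met at 505 CPM. These sums carry no test. The distance between SKO and WT livers depended on the scaling. With scaling to total counts the means were 475.9 (WT), 457.5 (SKO) and 576.1 CPM (DKO), and SKO replicates 1 and 3, at 489.0 and 531.3 CPM, were above every WT liver.

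**Figure D1:**
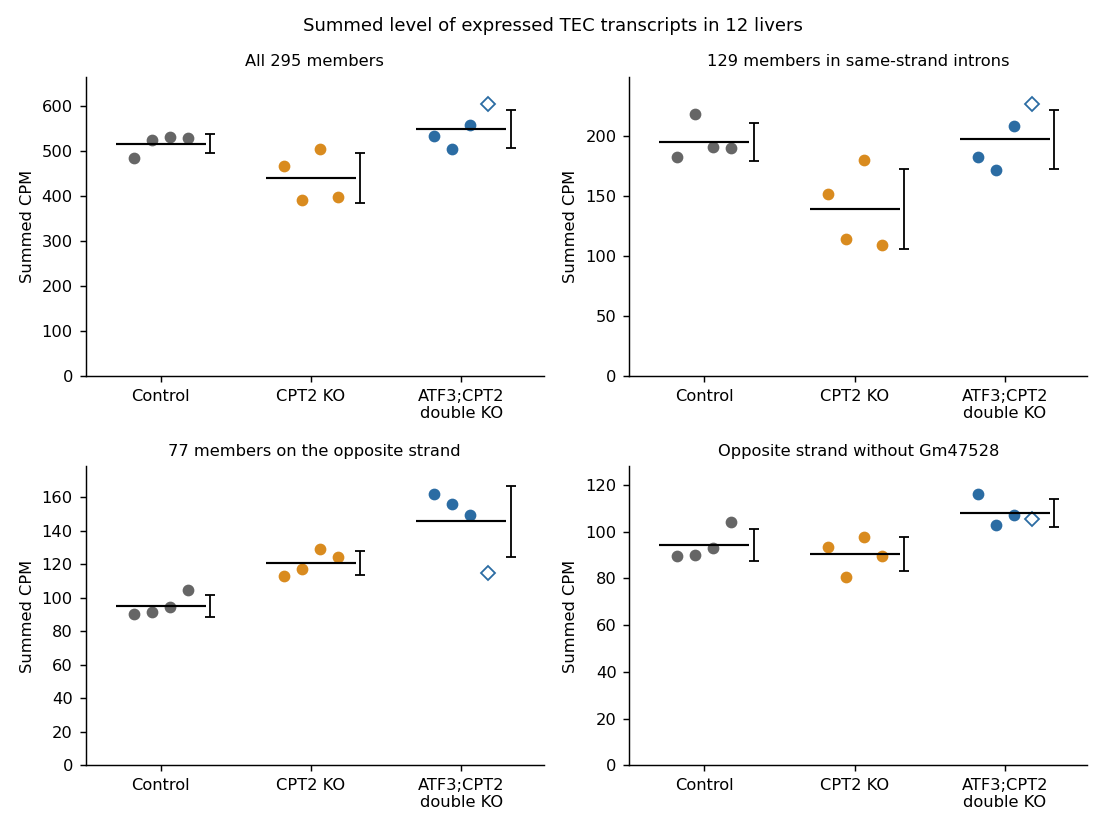
Summed CPM of TEC members in each of 12 livers, with the mean as a line and the SD as a bar beside it; the open diamond is DKO replicate 4, and WT is drawn as control, SKO as CPT2 KO and DKO as double KO. The mean of the members in same-strand introns is lowest in SKO livers (139 CPM), and the opposite-strand sum of the SKO livers, above every WT liver, spans 80.5 to 97.9 CPM and overlaps WT once the single row Gm47528 is left out.

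The sums were also taken by position. The 129 members in same-strand introns had 195 ± 15.8 CPM (WT), 139 ± 33.3 (SKO) and 197 ± 24.7 (DKO), and without Gm43314, chosen after its values were seen as their leading row, 162 ± 17.5, 137 ± 32.5 and 193 ± 23.0 CPM. The 77 members on the opposite strand had 95.3 ± 6.64 (WT), 121 ± 7.40 (SKO) and 146 ± 21.1 CPM (DKO). Without Gm47528 the opposite-strand sums were 94.3 ± 6.69, 90.3 ± 7.39 and 108 ± 5.87 CPM and the SKO and WT ranges overlapped. The 70 members outside protein-coding genes had 184 ± 15.6 (WT), 141 ± 18.4 (SKO) and 163 ± 35.5 CPM (DKO), and every SKO liver was below every WT liver. Without Gm44250 these means were 105.5, 93.2 and 107.4 CPM with overlapping ranges. The 19 members over an exon of the same strand had 42.9 ± 3.63, 39.7 ± 6.42 and 44.3 ± 3.62 CPM. Without DKO replicate 4 the DKO livers had 145.6 ± 8.14 CPM outside protein-coding genes. There DKO replicates 1 to 3, at 137.8 to 154.0 CPM, were below every WT liver (167.2 to 198.2 CPM). The other DKO sums without replicate 4 were 187.3 ± 18.65 (same-strand introns), 155.8 ± 6.453 (opposite strand) and 43.14 ± 3.463 CPM (same-strand exons).

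The livers labelled as lacking CPT2 alone were compared first. Against WT, 32 of the 204 members that passed the filter on low counts were called in SKO livers (15.7%), 11 higher and 21 lower, where 32.1% of all 14261 genes tested were called, 16.7% higher and 15.4% lower. Among lncRNA genes 29.2% were called. The median log2 fold change of the members tested was −0.20, against 0.03 over all genes tested, and 79 of the 204 were above 0. The ranges of the SKO and WT livers did not overlap in 9 members higher and 23 lower in SKO livers, beside 17.2% and 16.1% of all genes. DESeq2 called 37 of 295 members (12.5%), beside 26.6% of all the genes it tested. The shares are not like for like, because the members tested had a median level of 1.235 CPM and all genes tested one of 14.5 CPM, and their difference was not tested. In the 84 members with 10 counts in every liver 5 were called higher and 6 lower. Leaving out any 1 of the 8 livers gave 23 to 34 called members, the 34 without SKO replicate 3. The 11 called higher became 6 without WT replicate 2.

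The largest rise was that of Gm47528, which runs antisense across the start of Apoa4. Apoa4 codes for apolipoprotein A-IV, a lipid-binding protein of secreted lipoproteins that the liver makes more of under metabolic stress. Gm47528 lies at chr9:46151139-46153330 on the minus strand in the coordinates of the gene table, and 1337 of its 2192 bases overlap Apoa4 on the plus strand. It had 11, 19, 23 and 15 counts in the WT livers and 297, 713, 608 and 619 in the SKO livers. In the DKO livers it had 953, 869, 831 and 179 counts, the last in replicate 4. Every KO liver was above every WT liver, and DKO replicate 4 was the lowest of the KO livers. The log2 fold change was 4.91 (SE 0.30, adjusted p = 1.29e-06) in SKO and 5.23 (SE 0.55, adjusted p = 0.00337) in DKO against WT livers, or 5.55 without DKO replicate 4 (SE 0.22, adjusted p = 1.03e-07).

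Gm47528 also covers the stretch just before the RefSeq start of Apoa4. The gene table sets the start of Apoa4 further upstream, so that part of this stretch lies inside Apoa4 by that table. The 250 bases before the RefSeq start of Apoa4 (GRCm38.p6, chr9:46240594-46240843, plus strand) are shown because the antisense row contains all of them on the other strand, ends 753 bases upstream of them and begins 1189 bases past the start inside the gene. Capitals mark the single match of AGTTCA, a variant half-site of nuclear receptors.
Apoa4 upstream region: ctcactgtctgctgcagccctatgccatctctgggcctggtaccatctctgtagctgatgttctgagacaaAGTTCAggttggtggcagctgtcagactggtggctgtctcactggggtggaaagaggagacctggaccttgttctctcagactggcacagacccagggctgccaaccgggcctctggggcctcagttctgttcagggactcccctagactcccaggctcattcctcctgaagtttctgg
The motif was found, on either strand, in 11.8% of 32851 RefSeq promoters of this length. The letters TGACGTCA, TGANTCA and TGATGNAAT, which CREB, AP-1 and ATF4 with C/EBP partners are known to bind, AGGTCA and TATAAA were not in this window, and 1.55%, 6.75%, 0.816%, 14.0% and 12.4% of promoters held them. Their absence says nothing of factors bound elsewhere.

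Gm47528 and Apoa4 parted in DKO replicate 4. Apoa4 itself stood at 373 to 864 CPM in WT, 7545 to 16630 in SKO and 8627 to 10130 CPM in DKO replicates 1 to 3, but at 498 CPM in DKO replicate 4, inside the WT range. Gm47528 in that liver was 9.53 CPM, against 0.572 to 1.496 CPM in WT. Per 1000 counts of Apoa4 the row had 0.698 to 4.01 counts in WT and 2.19 to 4.19 in SKO livers, ranges that overlap. It had 4.78 to 5.33 in DKO replicates 1 to 3, above every WT and SKO liver, and 19.2 in DKO replicate 4.

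Gm43314 was the member that fell most in SKO livers. It lies in an intron of Cth on the same strand (chr3:157600598-157602828), and Cth codes for cystathionine gamma-lyase, which makes cysteine from methionine by transsulfuration. Gm43314 had 751, 1057, 233 and 213 counts in WT, 20, 12, 47 and 15 in SKO, and 70, 21, 82 and 106 in DKO livers. No KO liver reached the lowest WT liver, although the WT livers themselves spread widely. The log2 fold change was −4.67 (SE 0.61, adjusted p = 0.000169) in SKO and −3.17 (SE 0.61, adjusted p = 0.0182) in DKO livers against WT, and the second call was lost in 6 of 15 alternative settings. Cth fell by 3.40 on the log2 scale in SKO livers (adjusted p = 2.58e-06), and was 73.3 to 127 CPM in DKO replicates 1 to 3 but 686 CPM in replicate 4. With the member at 5.64 CPM in that liver, against 11.7 to 66.9 CPM in WT, the intronic row stayed low where its host was near the WT range of 782 to 1015 CPM.

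Gm45724 also fell in both KOs. It is a 420-base row opposite Ces3a, a liver carboxylesterase of the endoplasmic reticulum. It had 144, 188, 23 and 111 counts in WT, 17, 0, 3 and 7 in SKO, and 2, 0, 21 and 7 in DKO livers. All KO livers were below all WT livers, with WT replicate 3 close to them. The log2 fold change was −4.10 (SE 0.78, adjusted p = 0.00192) in SKO and −4.06 (SE 0.86, adjusted p = 0.0223) in DKO livers. The row passes the rule only with the WT livers, which favoured its fall, and its call in DKO livers was lost in 6 of 15 alternative settings. Ces3a fell less, by 1.25 and 1.03 on the log2 scale.

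**Figure D2:**
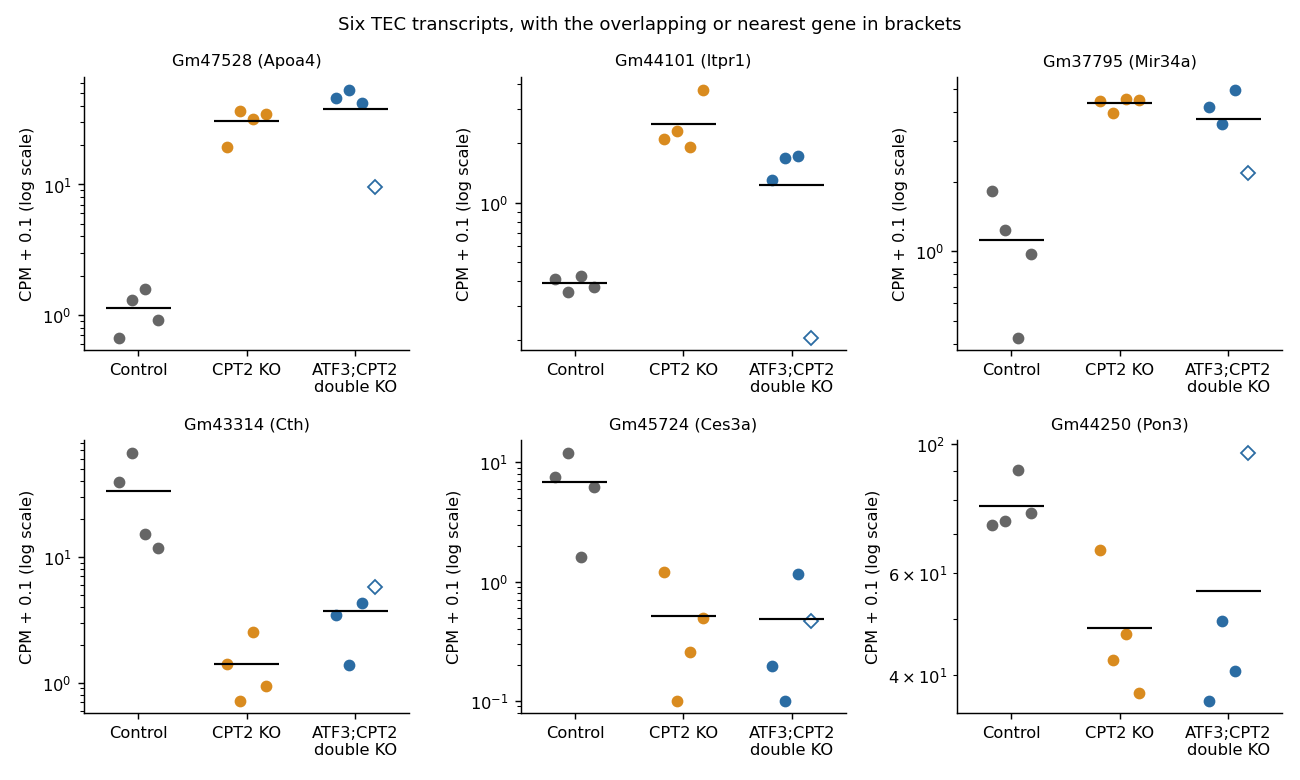
CPM plus 0.1 (log axis) of 6 members in each liver, with the overlapping or nearest gene in brackets and group means as lines; the open diamond is DKO replicate 4. Gm47528 and Gm37795 are above WT in every KO liver, Gm43314 and Gm45724 below, and Gm44101 and Gm44250 have DKO replicate 4 far from the other DKO livers.

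Gm44101 rose in SKO livers, where its neighbour did not pass the test. It lies opposite Itpr1, the calcium release channel of the endoplasmic reticulum gated by inositol trisphosphate. It had 6, 4, 5 and 5 counts in WT and 31, 43, 35 and 65 in SKO livers. In DKO livers it had 25, 26, 32 and, in replicate 4, 2 counts. The log2 fold change in SKO livers was 3.02 (SE 0.36, adjusted p = 9.51e-05), whereas that of Itpr1 was −0.42 (adjusted p = 0.15). No WT liver had 10 counts of Gm44101, which passes the rule only through the KO livers, so the choice of members favoured this direction. The filter on low counts left Gm44101 untested in DKO against WT livers, and without DKO replicate 4 it was higher by 2.31 on the log2 scale (SE 0.37, adjusted p = 0.000617).

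Gm37795 begins inside the hairpin of the microRNA gene Mir34a. miR-34a is a microRNA known as a target of p53, and its mature 5p arm is shown because the row continues the same strand 45 bases past it and shares the last 17 of 102 hairpin bases. Capitals mark the seed, bases 2 to 8 (RefSeq, GRCm38.p6, chr4:150068473-150068494).
miR-34a-5p: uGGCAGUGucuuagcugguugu
The row had 33, 18, 5 and 16 counts in WT, 67, 75, 85 and 78 in SKO, and 85, 56, 96 and 39 in DKO livers. Every KO liver was above every WT liver. The log2 fold change was 2.03 (SE 0.37, adjusted p = 0.00149) in SKO and 1.82 (SE 0.44, adjusted p = 0.0339) in DKO livers, and the DKO call was lost in 8 of 15 alternative settings. The Mir34a row itself had group means of 0.0137 to 0.0520 CPM, under the limit that a count of 0 allows, and the mature microRNA was not measured.

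Of the other members called in SKO livers, those that rose by most were a mixed set. Gm37416, opposite an intron of Malrd1, had 8 to 15 counts in WT and 17 to 94 in SKO livers (log2 fold change 1.97, adjusted p = 0.00681), while Malrd1 was at 0 in every liver. Gm43808, opposite exons of Tmem214, a membrane protein of the endoplasmic reticulum, rose with it (1.73 and 0.84). Gm45819, opposite the lncRNA gene 1600010M07Rik, had 13 to 38 counts in WT and 67 to 97 in SKO livers (1.48, adjusted p = 0.00678). ENSMUSG00000118106 at Minpp1, an inositol phosphate phosphatase, and Gm45221 in Picalm, a clathrin adaptor, rose by 1.41 (adjusted p = 0.0242) and 1.28 (adjusted p = 0.0174) on the log2 scale in SKO livers, and both hosts rose too (0.55 and 1.498). These 2 calls were lost in 5 and 3 of 15 alternative settings, with adjusted p-values up to 0.0745 and 0.0598. The calls of ENSMUSG00000118106, Gm45221 and Gm37416 in DKO against WT livers were lost in 8, 9 and 10 of 15.

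Of the 21 members that fell in SKO livers, 9 lay in introns on the same strand, a class that made up 78 of the 204 members tested. Gm38357 in Noct, whose product nocturnin follows the daily clock, had 35 to 135 counts in WT and 3 to 20 in SKO livers (−2.97, adjusted p = 0.000758, with Noct at −1.83). In DKO livers it had 7, 3, 19 and, in replicate 4, 90 counts, and its fall of 3.15 on the log2 scale was called only without that replicate (adjusted p = 0.00108, against 0.248 with it). Gm43429 in Slc39a8, a zinc and manganese transporter, fell by 2.04 with its host at −0.93, and 2510016D11Rik in Tpcn1, a cation channel of endosomes and lysosomes, fell by 1.57 with its host at −0.999. Gm44014, opposite exons of Pex26, which anchors the import machinery of peroxisomes, fell by 2.40 with Pex26 at −0.83, and it too passes the rule only with the WT livers. In these 4 pairs the log2 fold change of the row was the larger in size, but the rows were named for the size of their fall and the hosts were not. That choice favoured this outcome, so it is a description. Gm37881 in Il2ra fell by 1.83 where Il2ra was too low to test. Gm42944 fell by 2.56, and its nearest gene was 11331 bases away.

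Gm44250, the highest member, began 366 bases past the end of Pon3 on the same strand. Pon3 codes for a paraoxonase, a lactonase carried on high-density lipoprotein. Gm44250 had 1395, 1161, 1387 and 1380 counts in WT, 1011, 828, 904 and 662 in SKO, and 745, 807, 796 and 1812 in DKO livers. All SKO livers and DKO replicates 1 to 3 were below all WT livers, and DKO replicate 4 was the highest of the 12 in CPM. It fell in SKO livers by 0.70 on the log2 scale (SE 0.17, adjusted p = 0.00824, but 0.0699 in one fit over 12 livers), and the value for DKO livers was −0.47 (adjusted p = 0.302) with and −0.89 (SE 0.13, adjusted p = 0.000312) without replicate 4. Pon3 was at −0.22 (adjusted p = 0.246) in SKO livers. Per 1000 counts of Pon3 the row had 971 to 1170 counts in WT, 685 to 847 in SKO, 747 to 830 in DKO replicates 1 to 3 and 1460 in replicate 4.

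Of the other 7 members among the 10 highest none was called against WT when all livers were used. Gm45769 at Smim10l1 (140 to 287 counts), Gm45838 at Stard5, a sterol transfer protein (110 to 324), Gm43609 in Abcd3, a peroxisomal transporter of fatty acids (67 to 283), A930004J17Rik in Srsf4, a splicing factor (78 to 251), Gm43611 (43 to 253) and Gm47976 (70 to 188) had overlapping ranges in WT and SKO livers. Gm47976 was higher in DKO livers by 0.69 on the log2 scale (adjusted p = 0.0267) once DKO replicate 4 was left out. Gm45909 in Ces1d, another carboxylesterase, had 88 to 177 counts in WT and 42 to 174 in SKO livers. It had 22, 10 and 78 counts in DKO replicates 1 to 3 and 216 in replicate 4. The log2 fold change was −0.92 (adjusted p = 0.431) in DKO against WT livers and −2.10 (SE 0.51, adjusted p = 0.00808) without that replicate, where Ces1d was at −0.22.

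The double KO was compared with WT next, and here the count turned on single livers. Called in DKO livers were 14 of 254 members tested (5.51%), 12 higher and 2 lower, beside 10.5% of all 14448 genes (6.06% higher and 4.39% lower). Without DKO replicate 4 there were 40 of 261 (15.3%), 23 higher and 17 lower, beside 35.9% of all genes (18.4% and 17.5%). Leaving out DKO replicate 1, 2 or 3 gave 3, 2 and 4, and leaving out WT replicates 1 to 4 gave 1, 2, 7 and 3. DESeq2 called 26, 21 higher and 5 lower, beside 14.5% of the genes it tested (7.64% and 6.82%). Ranges did not overlap in 31 members higher and 8 lower, beside 7.72% and 9.05% of all genes. Without DKO replicate 4 these were 44 and 23 members, beside 3150 and 2973 of all 14634 genes. The median log2 fold change of the members tested was 0.25 against 0.03 over all genes, and 158 of 254 were above 0, with lncRNA genes at 0.07. Rows let in by the rule through their DKO counts are among these. In the 84 members with 10 counts in every liver 3 were called higher and 1 lower, and ranges did not overlap in 5 higher and 2 lower. Leaving out DKO replicate 4 made these 5 and 6 called, and 9 and 7 by ranges.

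Members called in both KOs against WT were 7, the 8 ends shown above less Gm44250. Without DKO replicate 4 they were 21, of 32 called in SKO and 40 in DKO livers. Both comparisons share the WT livers, so that neither count is a result of its own.

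Of the 7 members called in DKO against WT and not in SKO against WT livers, the 5 with the largest log2 fold change had low counts. None of these 5 reached 10 counts in a WT liver, all did in the 4 DKO livers, and Gm37472 and Gm48372 did in no other liver. The rule that chose them on those counts had thus favoured or fixed their direction, and their values are a description. Gm37589 in Mbnl1, a splicing regulator, had 3, 1, 4 and 4 counts in WT, 7, 12, 11 and 4 in SKO, and 14, 16, 12 and 21 in DKO livers. Relative to WT it rose in DKO livers by 2.24 on the log2 scale (SE 0.44, adjusted p = 0.0194), with Mbnl1 at −0.12. Gm37472 in the lncRNA gene Dleu2, the host of miR-15a and miR-16-1, had 1 to 7 counts in WT, 0 to 3 in SKO, and 12, 12, 15 and 18 in DKO livers. Gm37472 rose there by 2.10 on the log2 scale (SE 0.50, adjusted p = 0.0324), with Dleu2 at −0.07.

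Gm48372 in Fgd6, an exchange factor of Cdc42, rose likewise in DKO livers, from 5 to 8 counts in WT to 19 to 24 (1.61, SE 0.32, adjusted p = 0.0194), with Fgd6 at 0.24. Gm43119 in Mn1, a transcriptional coactivator, had 4 to 8 counts in WT and 13 to 25 in DKO livers (1.47, adjusted p = 0.0324), and Mn1 rose by 0.65. Gm42987 at Gpat3, an acyltransferase of triglyceride synthesis, had 2 to 7 and 10 to 16 counts (1.501, adjusted p = 0.0488), and Gpat3 rose by 1.53. The call of Gm42987 was lost in 14 of 15 alternative settings, with an adjusted p of 0.0738 by DESeq2 and 0.0502 without DKO replicate 4. Those of Gm43119, Gm37472, Gm48372 and Gm37589 were lost in 9, 7, 7 and 5. Among the 15 settings, the restriction to livers with Y-linked counts repeats the fit without DKO replicate 4. In SKO against WT livers none of these 5 rows passed the filter, so that a difference between the KOs was not tested by these calls.

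The members' differences were set against those of the protein-coding genes beside them, as a description across genes that are not independent replicates. In SKO against WT livers Pearson's r between the 2 log2 fold changes was 0.67 for 87 pairs overlapping on the same strand, 0.61 for 47 on the opposite strand, and 0.01 for 23 that did not overlap. In DKO against WT livers it was 0.37 (128 pairs), 0.67 (54 pairs) and 0.07 (25 pairs). In DKO against SKO livers it was 0.19 (112 pairs), 0.02 (54 pairs) and 0.08 (21 pairs). Without DKO replicate 4 the values were 0.54, 0.63 and 0.14 against WT, and 0.23, 0.14 and 0.33 against SKO livers, the last for the pairs that did not overlap. Spearman's rho for the opposite-strand pairs was 0.40, 0.46 and −0.05 in the 3 comparisons. Both values of a pair come from the same libraries, and the opposite-strand values include the Gm47528 and Apoa4 pair far from the rest. Of the 11 members called in SKO livers that overlapped a gene on the same strand, 8 had a host called in the same direction and 3 a host not called. On the opposite strand these were 6 and 4 of 11, and the remaining gene, Fxr1 opposite Gm43667, was called in the other direction.

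**Figure D3:**
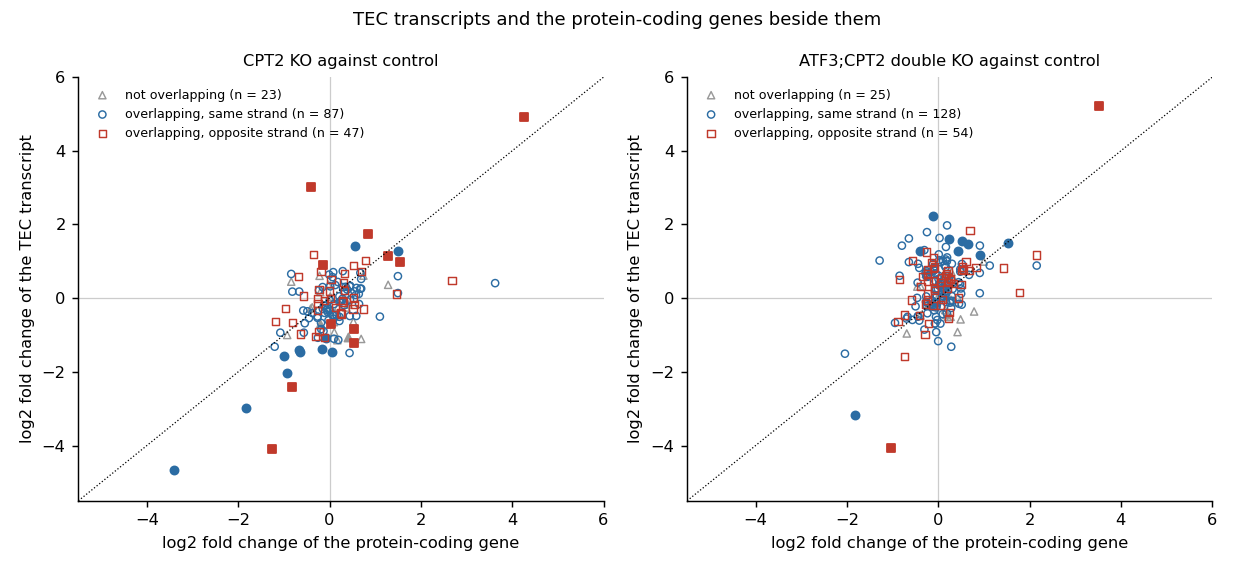
Log2 fold change of each TEC member against that of its protein-coding neighbour, in SKO against WT (left) and DKO against WT livers (right); filled symbols are members called at an adjusted p under 0.05 and the dotted line is equality. Circles overlap on the same strand, squares on the opposite strand, and triangles do not overlap. Gm47528 (4.91) and Gm43314 (−4.67) share the direction of their neighbour in SKO livers, while Gm44101 (3.02) has a neighbour at −0.42.

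The livers labelled DKO and SKO were compared last, where the labels differ in ATF3. No member was called, 0 of 234 tested, beside 0.0209% of all 14363 genes (3 genes), and likewise 0 of 249 without DKO replicate 4, beside 0.103%. At an unadjusted p under 0.05, 38 members were higher and 1 was lower in DKO livers, beside 4.11% and 2.38% of all genes. Without DKO replicate 4 these were 35 and 3 members, beside 3.77% and 3.45% of all genes. Ranges did not overlap in 28 members higher and 2 lower in DKO livers, beside 2.08% and 1.86% of all genes. Without DKO replicate 4 these were 36 and 4 members, beside 591 and 518 of all 14589 genes. DESeq2 called 7 members, 6 higher and 1 lower, beside 0.545% of the genes it tested (0.359% and 0.186%). The rule had let in 83 members that would not pass without the DKO livers, which favours higher rows. In the 84 members with 10 counts in every liver 5 were higher and 0 lower at an unadjusted p under 0.05, ranges did not overlap in 2 higher and 0 lower, and DESeq2 called 0. With DKO replicate 4 left out these were 10 higher and 1 lower at that p, and 7 and 1 by ranges.

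In the sign of their differences the members were mostly higher in DKO livers. Of the 234 members tested, 193 (82.5%) had a log2 fold change above 0, with a median of 0.39, where all genes had 51.5% and 0.01 and lncRNA genes 66.2% and 0.17. Without DKO replicate 4 the members had 77.5% and 0.36. In the 84 members with 10 counts in every liver the values were 77.4% and 0.28, or 67.9% and 0.22 without that replicate.

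The overlapped genes had differences centred near 0. They were not chosen by the rule on counts, but they lie at members that were, and they had to pass the filter on low counts. Over 166 overlapping pairs the median log2 value of DKO over SKO was 0.44 for the members and −0.03 for the genes, and the member was above its gene in 139 (83.7%). Without DKO replicate 4 these were 0.42, −0.002 and 146 of 175. In the 54 pairs whose member had 10 counts in every liver, a subset taken after the data were seen, the member was above its gene in 41 (75.9%), both with and without that replicate, and with it the medians were 0.29 and −0.02. Against WT, the member was above its gene in 117 of 182 pairs in DKO and in 40 of 134 pairs in SKO livers (29.9%), and both comparisons share the WT livers. In the 54 pairs whose member had 10 counts in every liver these were 33 (61.1%) in DKO and 16 (29.6%) in SKO livers. Without DKO replicate 4 the 33 became 31 (57.4%).

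**Figure D4:**
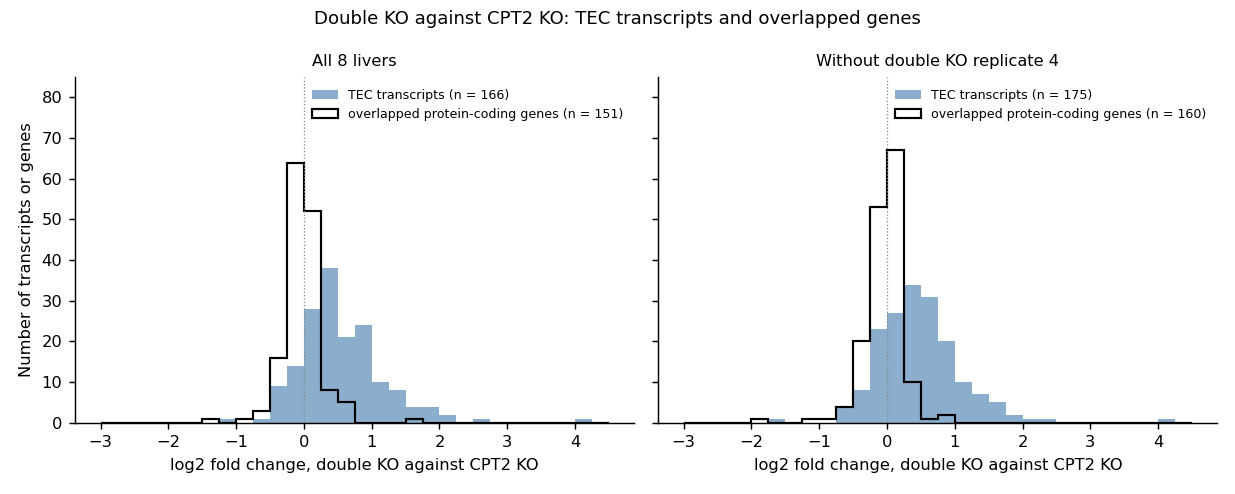
Number of TEC members (filled) and of the protein-coding genes they overlap (line) by log2 fold change in DKO against SKO livers, with all 8 livers (left) and without DKO replicate 4 (right). The genes center on 0 and the members to the right of it, with medians of 0.44 and −0.03 on the left.

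Other measures of the libraries stand beside these values, with no test of their difference. TEC rows with at least 1 count were 863 to 954 (WT), 820 to 932 (SKO) and 1066 to 1196 (DKO), and at the lowest depth of the 12 the expected numbers were 824 to 883, 757 to 878 and 1031 to 1160. Nuclear genes of ribosomal RNA took 0.452 to 1.36% of the counts (WT), 0.713 to 1.46% (SKO) and 1.40 to 2.80% (DKO). Malat1, a lncRNA retained in the nucleus, stood at 484 to 970 CPM in WT, 410 to 633 in SKO and 1008 to 1437 CPM in all DKO livers, replicate 4 included. Neat1, the lncRNA of nuclear paraspeckles, did not run the same way, with 204 to 353 CPM in WT, 906 to 2234 in SKO, 1390 to 3286 in DKO replicates 1 to 3 and 295 CPM in replicate 4. The part of nuclear RNA or of RNA quality in the members' values was not tested.

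None of the 7 members that DESeq2 called between the KOs had 10 counts in every liver. Of them Gm43361, Gm37472, 5330406M23Rik, Gm38070 and Gm38372 pass the rule only with the DKO livers, so that the choice of members favoured their direction and their values are a description. Gm43361, opposite Atp2a2, the calcium pump of the endoplasmic reticulum, had 18, 9, 11 and 7 counts in WT, 1, 0, 0 and 4 in SKO, and 13, 17, 44 and 22 in DKO livers. The SKO livers were the lowest, and the log2 difference of 4.08 between the KOs (SE 0.79) had an adjusted p of 0.246 by edgeR and 0.00124 by DESeq2. Gm45819 was the one called lower. It had 67, 74, 72 and 97 counts in SKO and 32, 6, 20 and 5 in DKO livers, with a log2 fold change of −2.39 (SE 0.47) and adjusted p-values of 0.253 by edgeR and 0.000113 by DESeq2.

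DESeq2 alone called the other 5, all higher in the DKO. Gm37472 had a log2 fold change of 3.34 (adjusted p = 0.182 by edgeR and 0.0174 by DESeq2). Gm37084 in Mapkapk2, a kinase downstream of p38, had 5 to 20 counts in SKO and 30 to 72 in DKO livers (0.396 and 0.00945). 5330406M23Rik in Lncpint, a lncRNA induced by p53, had 2 to 11 and 14 to 35 counts (0.372 and 0.0212), and Lncpint was at 1.17 (adjusted p = 0.286). Gm38070 in Il1r1, the interleukin 1 receptor, and Gm38372 in Pcmtd1 had adjusted p-values of 0.396 and 0.439 by edgeR and 0.0442 and 0.042 by DESeq2.

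The 5 members with the highest share of their counts in DKO replicate 4 were Gm37472, Gm38372, Gm43410, Gm43999 and Gm48225. Gm43999 in Mgll, the lipase of monoglycerides, had 15, 15, 21 and 41 counts in DKO livers and 1 to 9 in WT, and Gm48225 in Gphn had 17, 12, 10 and 39 against 2 to 7. Both rows reached 10 counts in the 4 DKO livers only, and neither was called (adjusted p = 0.0574 and 0.0769). Gm43410 in Dpyd had 4, 33, 13 and 37 counts in DKO livers, which overlapped the 4 to 11 of WT.

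Next to the deleted genes no TEC row passed the rule. Within 500 kb of Atf3 lie Gm37074, Gm37349 and 9430037O13Rik, with at most 2 counts in any liver, and within 500 kb of Cpt2 there is no TEC row in the table.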

How the data were processed

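Raw read counts for every Ensembl gene in 12 livers, not normalized, are what the authors deposited. The processing notes name HISAT2, GRCm38 and mm10, but the table's gene coordinates are not those of GRCm38 (1472 of 52073 shared identifiers have the same start and end). They were taken to be GRCm39, which no file states, and are printed as the table gives them. Positions relative to exons, and sequences, come from GENCODE M21 and RefSeq tables on GRCm38, by identifier. The counting program and its strand setting are not given in the sources used here. A deposited FPKM table and the authors' own fold changes and p-values were not used.

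Genotypes were set against each other in pairs by edgeR 4.0.16 under R 4.3.3 (TMM within the 8 livers, filterByExpr, quasi-likelihood test, two-sided, Benjamini-Hochberg over all genes tested). Called means an adjusted p-value under 0.05. SE is the log2 fold change over the square root of F. The test was checked on simulated counts. CPM was scaled over all 12 livers. DESeq2 1.42.0, RLE factors, other filters, one fit over 12 livers, a replicate block and leaving out each liver were tried. Same-numbered livers had deviations that correlated at −0.337 to 0.0887, so numbers were not taken to pair mice. Nothing beside the titles says that replicates are separate mice, and p-values measure the spread between these samples.

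The members and lists were chosen with earlier results of these data known. The rows named are the 10 of highest mean CPM, up to 8 higher and 8 lower called per comparison by fold, TEC rows within 500 kb of Atf3 or Cpt2, the 3 nearest each side of the threshold, the 5 with the highest share of counts in DKO replicate 4, Malat1, Neat1 and the gene beside each. Members named for DESeq2's calls, and Gm43667, were chosen after their values were seen.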

Additional observations from a re-analysis of the deposited data

Results flagged for a closer look

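In 7 of 135 groups of 4 livers tested (5.19%), the highest or lowest liver stood apart from the rest by more than Dixon's critical gap for 4 values, where chance gives about 1 in 20. Of the 7, 2 are DKO replicate 4, namely Gm38357 at 4.79 CPM and Gm38372 at 2.82 CPM, each the highest of the DKO livers. Across genes that liver did stand apart. The chi-square per degree of freedom between its counts and those of another DKO liver was 220 to 261. It was 31.1 to 37.4 among DKO replicates 1 to 3, 50.9 to 106 among SKO livers and 20.6 to 39.6 among WT livers. In WT livers A930004J17Rik was 14.1 CPM in replicate 3, Gm38372 was 2.08 CPM in replicate 1, and Gm48958 was 0.0650 CPM in replicate 3, which is 1 count among livers at 0. Gm37795 was 3.84 CPM in SKO replicate 2, the lowest of 4 close values. The summed level of the members was 484.2 CPM in WT replicate 1, the lowest of the WT livers.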

How the results depend on the processing

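Members called in SKO against WT livers numbered 28 to 37 under DESeq2, RLE factors, both other filters, the fit over 12 livers, the replicate block and the restriction to livers with Y-linked counts, and 23 to 34 with 1 liver left out. In DKO against WT livers the 14 called became 26 by DESeq2, 1 with the replicate block, 40 when livers without Y-linked counts were left out, and 1 to 40 with 1 liver left out. The 40 came without DKO replicate 4, which is the same fit as the one restricted to livers with Y-linked counts. Since livers of the same number share only a number, the block also costs degrees of freedom, and calls lost with it are not described as weaker effects. In DKO against SKO livers the 0 became 7 by DESeq2 and 2 with no filter on low counts (Gm43361 and Gm45819), and stayed 0 with each liver left out (0 to 0). Mean summed CPM in WT, SKO and DKO livers was 622.9, 529.7 and 718.4 over all TEC rows, and 438.9 and 494.3 in WT and DKO livers without Gm44250. With scaling to total counts it was 475.9, 457.5 and 576.1. With 1 liver left out it was 512.3 to 527.8 (WT), 418.7 to 456.7 (SKO) and 531.8 to 564.8 CPM (DKO). The rule would give 499 members at 5 counts, 140 at 20 counts and 84 at 10 counts in all 12 livers. For single members the alternatives were run on 17 called in SKO against WT livers, 12 called in DKO against WT livers and the 7 that DESeq2 called between the KOs, and none of these changed sign. Of the 17, 9 of 255 values lost the call, and of the 12, 89 of 180 did. Gm47528 kept it in all 15 alternatives of both. Against WT, the restriction to livers with Y-linked counts repeats the fit without SKO replicate 3 or the fit without DKO replicate 4. That fit is counted under both settings in these tallies and in those out of 15. The causes were not tested. The effect of depth on the calls was not tested, and the members' median level was 0.809 CPM.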
